A study of Homo sapiens with 8 samples.

Results

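The EGF family is described here through 10 genes, taken as the rows of the deposited expression table whose symbol matched a fixed list, out of 22504 genes in all. They comprised 6 ligand genes (HBEGF, AREG, EREG, TGFA, BTC and NRG1), 3 receptor genes (EGFR, ERBB2 and ERBB3) and the gene of 1 intracellular receptor inhibitor (ERRFI1). The cells were U2OS, an established human osteosarcoma line, and their poly(A) RNA was sequenced. There were 4 groups with 2 libraries each: cells overexpressing the actin mutant G13R after serum stimulation, the same cells in normal growth, cells expressing GFP after serum stimulation, and GFP cells in normal growth. The labels do not give the duration of serum, any prior serum withdrawal, the actin gene that carried the mutation, or the number of clones or cultures behind the libraries. P-values therefore rest on how far these libraries differ from each other, and that spread may be technical.

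EGF family ligands are made as membrane-anchored precursors, and proteases of the ADAM family release them from the cell surface. Most of them, including HB-EGF, amphiregulin, epiregulin, TGF-alpha and betacellulin, bind EGFR, while neuregulin 1 binds ERBB3 and ERBB4. ERBB2 has no known ligand and acts as the preferred dimer partner of the other receptors, and ERBB3 has little kinase activity of its own. Active receptors signal through RAS and ERK and through PI3 kinase, and ERRFI1 (also called MIG6) binds the EGFR kinase domain and limits that signal as a feedback inhibitor.

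The bases upstream of 4 members are shown because AREG and ERRFI1 were called higher after serum in G13R cells, HBEGF was called lower in GFP cells, and EREG is the chromosomal neighbour of AREG. ERBB2, ERBB3 and NRG1 were also called after serum and are not shown. The matched ERBB2 window lies at an outer alternative start. Each run is the 250 bases before the gene start in RefSeq (GRCh38.p14), written 5′ to 3′ along the gene. Capitals mark matches, on either strand, to TGACGTCA (the cAMP response element), TATAAA (the TATA box), GGGCGG (the GC box) and GGAATG (the TEAD site). Only these exact letters were marked, so related runs, such as tatatata in the ERRFI1 window, were not. These coordinates are in another build than the hg19 positions of the expression table and were not combined with them.
AREG, chr4:74444886-74445135, plus strand: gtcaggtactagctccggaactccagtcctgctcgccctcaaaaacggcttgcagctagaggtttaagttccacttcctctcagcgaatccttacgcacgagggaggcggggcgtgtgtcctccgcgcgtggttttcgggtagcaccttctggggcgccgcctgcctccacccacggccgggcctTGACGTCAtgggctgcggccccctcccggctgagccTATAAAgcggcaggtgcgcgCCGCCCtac
EREG, chr4:74364895-74365144, plus strand: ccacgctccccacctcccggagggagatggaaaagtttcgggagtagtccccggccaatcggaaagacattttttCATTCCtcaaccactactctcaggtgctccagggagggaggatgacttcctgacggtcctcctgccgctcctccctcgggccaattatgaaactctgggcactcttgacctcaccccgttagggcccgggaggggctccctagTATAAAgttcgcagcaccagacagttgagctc
HBEGF, chr5:140346604-140346853, minus strand: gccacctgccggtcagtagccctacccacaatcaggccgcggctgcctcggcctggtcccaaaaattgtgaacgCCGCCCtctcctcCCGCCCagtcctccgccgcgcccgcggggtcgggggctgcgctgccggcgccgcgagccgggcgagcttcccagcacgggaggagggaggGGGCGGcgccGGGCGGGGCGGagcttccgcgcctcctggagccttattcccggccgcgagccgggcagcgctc
ERRFI1, chr1:8026310-8026559, minus strand: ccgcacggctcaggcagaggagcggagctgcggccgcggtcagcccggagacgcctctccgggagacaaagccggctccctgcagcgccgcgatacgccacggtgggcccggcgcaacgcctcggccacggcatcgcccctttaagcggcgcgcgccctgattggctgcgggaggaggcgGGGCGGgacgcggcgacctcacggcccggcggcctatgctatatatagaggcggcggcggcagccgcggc
Counted back from the gene start, AREG held a full cAMP response element from -65 to -58 and a TATA box from -29 to -24. EREG held a TATA box from -32 to -27 and a TEAD match from -175 to -170. AREG also held 1 GC box, HBEGF held 5, of which 1 pair shares a base, and ERRFI1 held 1. Of 27305 such windows, 1.77% held the full cAMP response element, 11.1% the TATA box, 42.3% the GC box and 11.9% the TEAD match. The AP-1 letters TGANTCA, the EGR letters GCGGGGGCG and the CArG box of SRF had no match in these 4 windows. The ERBB2 window, not shown, held 1 AP-1 match from -222 to -216, which 6.6% of all windows held. A match is a description of the letters and not of binding.

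All 8 libraries had between 12065 and 12568 genes at 1 FPKM or more, where FPKM is fragments scaled to transcript length and to the number of mapped fragments. ACTB, which encodes beta-actin, lay between 7949 and 11245 FPKM in the G13R libraries, against 2543 to 2779 FPKM in the GFP libraries; FPKM cannot separate an introduced transcript from the cells' own. Mesenchymal VIM (888 to 1335 FPKM), osteoblast-lineage SPARC (384 to 765 FPKM) and RUNX2 (3.04 to 9.91 FPKM) were present in all libraries. SP7 and COL1A2, also osteoblast markers, were each at 0 in 4 libraries and reached at most 0.158 and 0.293 FPKM. The 8 osteoblast markers summed to 546 to 592 FPKM in G13R serum and 470 to 512 FPKM in G13R normal libraries. Their sum was 693 to 848 FPKM in GFP serum and 601 to 688 FPKM in GFP normal libraries. SPARC made up most of the sum in every library, so the sum mainly describes that gene. Not all markers followed it: SPP1 had 41.4 and 41.3 FPKM in G13R normal, against 33.1 and 29.4 FPKM in GFP normal libraries. Of 4 neural markers, SYP (6.79 to 14.2 FPKM) and RBFOX3 (7.70 to 14.1 FPKM) were tested, while TUBB3 (at most 0.336 FPKM) and GFAP (at most 1.26 FPKM) did not pass the filter. Among all these markers, 4 were called by limma in some comparison. On the log2 scale, FN1 (mesenchymal) was higher after serum by 0.91 in G13R cells (adjusted p = 0.00101) and by 0.61 in GFP cells (adjusted p = 0.00245). ALPL (osteoblast lineage) was higher after serum in G13R cells (0.70, adjusted p = 0.0181), and SYP was lower after serum in GFP cells (-0.61, adjusted p = 0.0255). THY1 (mesenchymal) was lower in G13R than in GFP cells after serum (-0.65, adjusted p = 0.0376). The 6 epithelial markers summed to 3.25 to 4.56 FPKM in G13R serum and 4.74 to 7.51 FPKM in G13R normal libraries. Their sum was 5.88 to 8.03 FPKM in GFP serum and 4.98 to 7.53 FPKM in GFP normal libraries. Of them EPCAM (1.63 to 2.88 FPKM), CDH1 (0.498 to 4.47 FPKM) and KRT5 (0.349 to 1.34 FPKM) passed the filter. KRT14 (at most 3.85 FPKM), ESRP1 (at most 0.458 FPKM) and GRHL2 (at 0 in 4 libraries) did not. The 5 leukocyte and 3 endothelial markers stayed under 1 FPKM throughout, with PECAM1 at 0 in all 8. GFP serum replicate 2 lay at 44.7 on the first principal component, which held 53.9% of the variance, against 26.0 for GFP serum replicate 1 and 11.8 and 14.5 for the G13R serum libraries. Between the libraries of a group, 186 genes differed over 2-fold in GFP serum, against 87 to 102 in the other groups. The part of these markers and library differences in the results below was not tested, apart from leaving out each library in turn. In such bulk samples, fewer cells of a type and less RNA per cell cannot be told apart.

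FPKM is scaled to transcript length, so levels can be ordered between genes. ERRFI1 was the most abundant member, with a mean over the 8 libraries of 44.2 FPKM, followed by HBEGF at 18.1 FPKM and NRG1 at 14.7 FPKM. AREG (9.52 FPKM), ERBB2 (9.43 FPKM) and EGFR (7.36 FPKM) followed with overlapping ranges, and TGFA had 4.75 FPKM. EREG (1.51 FPKM) and ERBB3 (1.14 FPKM) lay near the floor of 1 FPKM used for testing. BTC, the betacellulin gene, had a mean of 0.156 FPKM and reached 1 FPKM in 0 libraries. Filtering at 1 FPKM or more in at least 2 libraries kept 12996 genes and 9 of the 10 members, all but BTC.

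**Figure D1:**
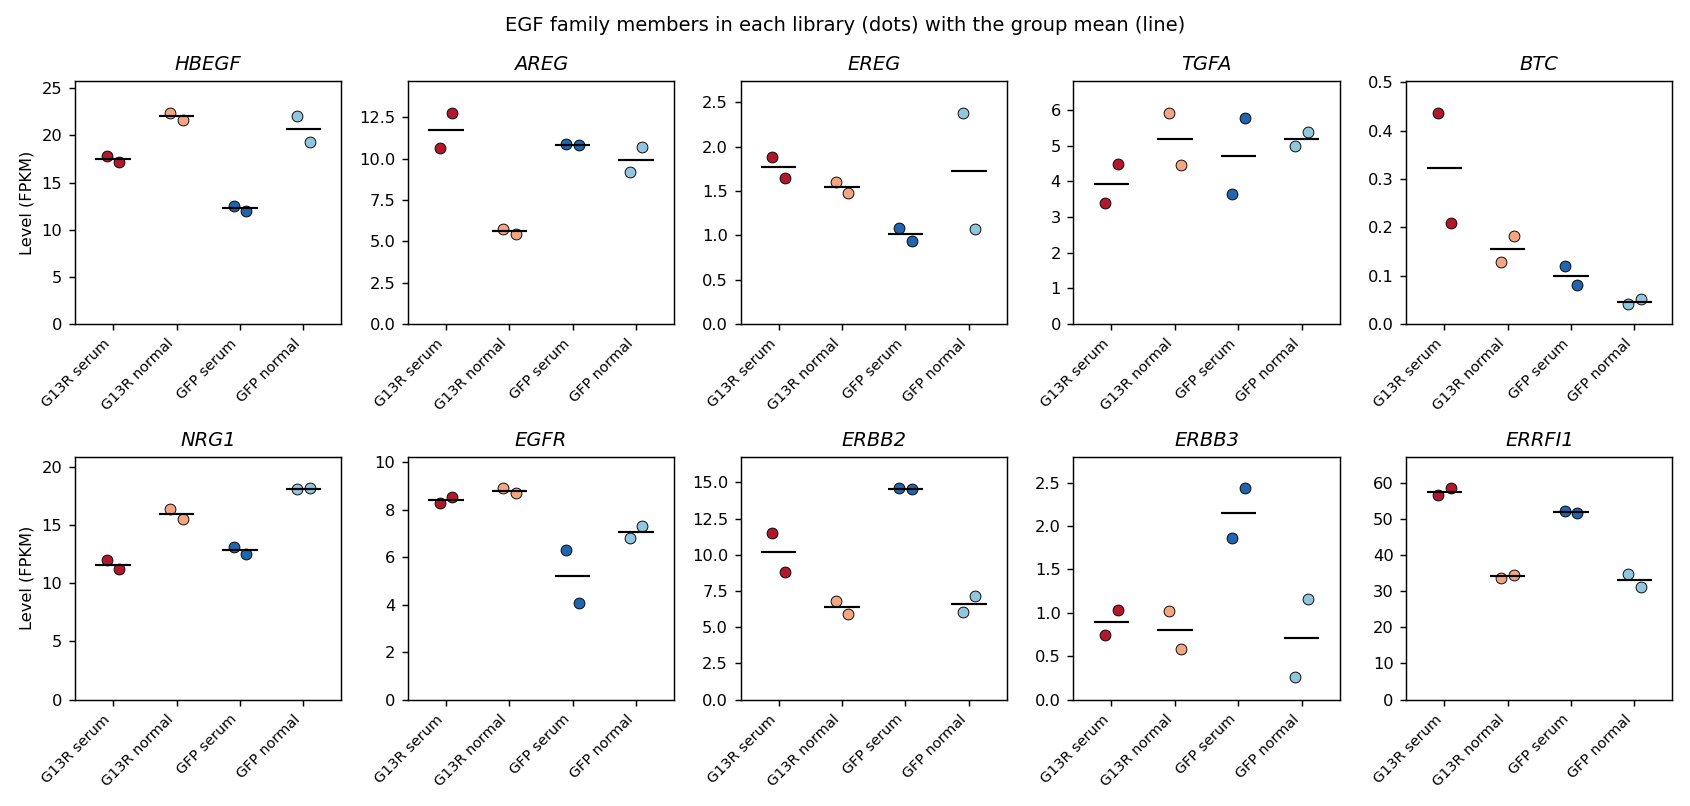
Level in FPKM (vertical axis, linear from 0, scale set for each gene) of the 10 EGF family members in the 4 groups; each dot is 1 library and each line the mean of 2. AREG is lowest in the G13R normal libraries, at 5.42 and 5.76 FPKM, and ERBB2 is highest in the GFP serum libraries, both at 14.6 FPKM.

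The serum response of each kind of cell compares its serum libraries with its normal growth libraries, on the scale of log2(FPKM + 1), on which changes of low genes are understated. In G13R cells 4 of 9 tested members were called by limma with an adjusted p under 0.05: AREG, ERBB2 and ERRFI1 rose, and NRG1 fell. In GFP cells 5 of 9 were called: ERBB2, ERBB3 and ERRFI1 rose, and HBEGF and NRG1 fell. Over all tested genes 12.9% were called in G13R cells, 8.26% higher and 4.62% lower, and 30.7% in GFP cells, 14.9% higher and 15.7% lower. The higher share among the genes called in G13R cells was 64.1%, and 52.7% under median-ratio scaling. The median change of the 9 members was 0.08 in G13R cells and -0.14 in GFP cells, against 0.04 and 0.01 for all tested genes. An unadjusted p under 0.05 was reached by 5 members in G13R cells and 6 in GFP cells, against 29.3% and 42.4% of all tested genes. In each kind of cell the libraries of 7 of the 9 tested members did not overlap, 4 higher and 3 lower. Over all tested genes 60.7% did not overlap in G13R cells (34.3% higher, 26.4% lower) and 66.3% in GFP cells (33.3% higher, 33% lower). Members called higher and members called lower thus occurred side by side, and ligands, receptors and inhibitor are taken in turn. Errors beside log2 fold changes are SE, and errors beside FPKM are SD with n = 2.

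HBEGF encodes heparin-binding EGF-like growth factor, a ligand of EGFR and ERBB4 (hg19 chromosome 5, 139712428 to 139726216). It had 17.8 and 17.1 FPKM in G13R serum libraries, against 22.4 and 21.6 FPKM in G13R normal libraries. It had 12.6 and 11.96 FPKM in GFP serum libraries, against 22.01 and 19.3 FPKM in GFP normal libraries. Serum libraries were lower without overlap in both kinds of cell, and the GFP serum libraries were the lowest of all. The fall in GFP cells was called, with a log2 fold change of -0.71 ± 0.12 (limma adjusted p = 0.00172), and stayed called under all 16 alternative settings. In G13R cells the value was -0.32 ± 0.12 and was not called (adjusted p = 0.0998).

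AREG encodes amphiregulin, an EGFR ligand and a known target of cAMP and YAP signalling (hg19 chromosome 4, 75310851 to 75320726). It had 10.7 and 12.8 FPKM in G13R serum libraries, against 5.76 and 5.42 FPKM in G13R normal libraries. In GFP cells it had 10.9 and 10.8 FPKM after serum, against 9.20 and 10.7 FPKM in normal growth. The G13R normal libraries therefore stood below the 6 others, which ran from 9.20 to 12.8 FPKM. The rise in G13R cells was called, with a log2 fold change of 0.94 ± 0.15 (limma adjusted p = 0.00355, called under all 16 alternatives). The value in GFP cells was 0.12 ± 0.15 (adjusted p = 0.574; 95% interval -0.21 to 0.44). The hg19 assembly holds a near-identical copy, AREGB, which was not analysed here; how reads were assigned between both loci was not tested, and the AREG values are uncertain to that extent.

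EREG encodes epiregulin and lies beside AREG (hg19 chromosome 4, 75230860 to 75254468). It had 1.88 and 1.65 FPKM in G13R serum libraries, against 1.60 and 1.48 FPKM in G13R normal libraries. It had 1.08 and 0.939 FPKM in GFP serum libraries, against 2.38 and 1.07 FPKM in GFP normal libraries. GFP normal replicate 1 was thus far above its replicate, at levels near the filter. EREG was called in neither kind of cell (limma adjusted p = 0.786 in G13R and 0.258 in GFP cells).

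NRG1, the neuregulin 1 gene, spans chromosome 8 from 31496902 to 32622548 in hg19. It had 12.02 and 11.2 FPKM in G13R serum libraries, against 16.4 and 15.6 FPKM in G13R normal libraries. It had 13.2 and 12.5 FPKM in GFP serum libraries, against 18.16 and 18.19 FPKM in GFP normal libraries. Serum libraries were lower in both kinds of cell, by similar amounts. The log2 fold change was -0.43 ± 0.12 in G13R cells (limma adjusted p = 0.0386) and -0.47 ± 0.12 in GFP cells (adjusted p = 0.0126). The difference between these responses was 0.04, with a 95% interval from -0.32 to 0.41. Neither call held in every fit that left out 1 library. The log2 fold change itself moved little in these fits, from -0.47 to -0.38 in G13R cells and from -0.50 to -0.44 in GFP cells. The call in G13R cells lay nearer the threshold and held in 10 of 16 alternatives, against 13 of 16 in GFP cells. In G13R cells it was lost when G13R normal replicate 1 (adjusted p = 0.171) or 2 (0.11), or G13R serum replicate 1 (0.123) or 2 (0.186), was left out. The same held for GFP normal replicate 1 (0.0612) or 2 (0.0616). The call in GFP cells was lost without GFP normal replicate 1 (0.0656), GFP normal replicate 2 (0.0609) or GFP serum replicate 2 (0.0523).

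TGFA, which encodes the EGFR ligand TGF-alpha (hg19 chromosome 2, 70674412 to 70781325), overlapped between serum and normal growth in both kinds of cell. It had 3.39 and 4.49 FPKM in G13R serum, against 5.93 and 4.45 FPKM in G13R normal libraries, and 3.63 and 5.77 FPKM in GFP serum, against 4.98 and 5.38 FPKM in GFP normal libraries. It was not called (limma adjusted p = 0.363 and 0.66), and the 95% interval ran from -0.82 to 0.17 in G13R cells and from -0.64 to 0.35 in GFP cells. BTC (hg19 chromosome 4, 75669969 to 75719896) was not tested. It lay between 0.0406 and 0.437 FPKM, with 0.437 and 0.208 FPKM in G13R serum, 0.128 and 0.182 FPKM in G13R normal, 0.119 and 0.0811 FPKM in GFP serum, and 0.0406 and 0.0515 FPKM in GFP normal libraries. No group pair of BTC overlapped in the 4 comparisons, at levels whose depth is unknown. Lack of overlap was common, at 48.7% to 66.3% of all tested genes depending on the comparison.

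Among the receptors, ERBB2 (also called HER2; hg19 chromosome 17, 37844167 to 37886679) had 11.5 and 8.82 FPKM in G13R serum libraries, against 6.83 and 5.89 FPKM in G13R normal libraries. It had 14.59 and 14.57 FPKM in GFP serum libraries, against 6.07 and 7.15 FPKM in GFP normal libraries. Serum libraries were higher without overlap in both kinds of cell, and the normal growth libraries of both kinds shared a range. The log2 fold change was 1.04 ± 0.16 in GFP cells (limma adjusted p = 0.00142, called under all 16 alternatives). It was 0.59 ± 0.16 in G13R cells (adjusted p = 0.0397), where the call was lost in 10 of 16 alternatives. These included leaving out G13R normal replicate 1 or 2 (adjusted p = 0.0954 and 0.183), G13R serum replicate 1 or 2 (0.249 and 0.0649), and GFP normal replicate 1 or 2 (0.0513 and 0.0521). The others were no filter (0.0915), median-ratio scaling (0.0533), quantile normalization (0.0832) and no intensity trend (0.057). The gene span shares 1931 bases with MIEN1, which had 30.7 to 42.2 FPKM, and 8884 bases with PGAP3, which had 4.16 to 5.82 FPKM. How reads in these bases were assigned was not tested, and the ERBB2 values are uncertain to that extent.

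EGFR (hg19 chromosome 7, 55086714 to 55324313) had 8.28 and 8.51 FPKM in G13R serum libraries, against 8.89 and 8.71 FPKM in G13R normal libraries. It had 6.31 and 4.08 FPKM in GFP serum libraries, against 6.81 and 7.32 FPKM in GFP normal libraries. The 4 G13R libraries were all above the 4 GFP libraries, and the GFP serum libraries were the lowest and the most spread. Neither response was called: the log2 fold change was -0.06 ± 0.18 in G13R cells (limma adjusted p = 0.855) and -0.40 ± 0.18 in GFP cells (adjusted p = 0.117). Without GFP serum replicate 1 the value in GFP cells was -0.67 and was called (adjusted p = 0.0144), and without GFP serum replicate 2 it was -0.14. The size of the EGFR value in GFP cells thus rested on which of these 2 libraries entered.

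ERBB3 (hg19 chromosome 12, 56473641 to 56497289) had 0.748 and 1.03 FPKM in G13R serum libraries, against 1.02 and 0.586 FPKM in G13R normal libraries. It had 1.86 and 2.43 FPKM in GFP serum libraries, against 0.265 and 1.16 FPKM in GFP normal libraries. Only the GFP serum libraries stood apart, above the 6 others. The rise in GFP cells was called, with a log2 fold change of 0.92 ± 0.29 (limma adjusted p = 0.0341), but the call was lost in 6 of 15 alternatives. They included leaving out GFP normal replicate 1 (log2 fold change 0.54, adjusted p = 0.241) or GFP serum replicate 2 (0.79, adjusted p = 0.151). The others were a pseudocount of 0.1 (1.72, adjusted p = 0.0513), no filter (adjusted p = 0.0699), quantile normalization (0.70, adjusted p = 0.101) and a fit of the compared libraries alone (adjusted p = 0.0648). In G13R cells the value was 0.08 ± 0.29 (adjusted p = 0.887). ERBB3 shares 2175 bases of its span with PA2G4, whose listed value ranged from 0.00161 to 17.6 FPKM, with 17.6 and 0.00161 FPKM in the GFP normal libraries. How reads in the shared bases were assigned was not tested, and the ERBB3 values are uncertain.

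ERRFI1, the inhibitor gene (hg19 chromosome 1, 8064464 to 8086368), had 56.7 and 58.6 FPKM in G13R serum libraries, against 33.8 and 34.6 FPKM in G13R normal libraries. It had 52.3 and 51.8 FPKM in GFP serum libraries, against 34.9 and 31.4 FPKM in GFP normal libraries. All 4 serum libraries were above all 4 normal growth libraries. The log2 fold change was 0.74 ± 0.09 in G13R cells (limma adjusted p = 0.00128) and 0.64 ± 0.09 in GFP cells (adjusted p = 9.15e-04), and both calls held under all 16 alternatives. The ratio of mean FPKM was 1.69 in G13R cells and 1.57 in GFP cells.

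**Figure D2:**
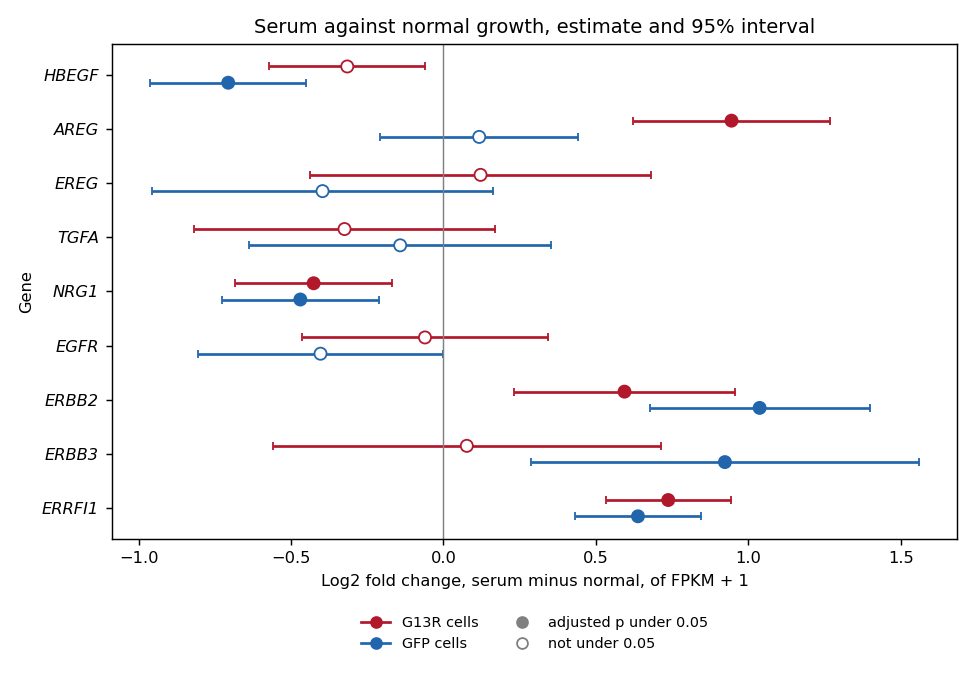
Log2 fold change of FPKM + 1 after serum (horizontal axis) of the 9 tested members in G13R and GFP cells, with 95% intervals from limma; filled dots had an adjusted p under 0.05. ERRFI1 and ERBB2 lie above 0 and NRG1 lies below 0 in both kinds of cell, while AREG is filled in G13R cells and HBEGF and ERBB3 in GFP cells.

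Whether the serum responses differed between the cells was tested directly as the G13R response minus the GFP response. None of the 9 members was called by limma, and 0% of all 12996 tested genes were; without GFP serum replicate 1, 486 genes were called and 0 members. At an unadjusted p under 0.05 there were 2 members, AREG and HBEGF, against 11.8% of all tested genes. The difference was 0.83 ± 0.21 for AREG (95% interval 0.37 to 1.29, adjusted p = 0.266) and 0.39 ± 0.16 for HBEGF (0.03 to 0.75, adjusted p = 0.393). For the receptors it was -0.44 for ERBB2 (-0.95 to 0.07), -0.85 for ERBB3 (-1.75 to 0.05) and 0.34 for EGFR (-0.23 to 0.91). For ERRFI1 it was 0.10 (-0.19 to 0.39). A call in one kind of cell and not in the other is therefore not shown to be a difference between them.

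G13R cells were then compared with GFP cells in each condition, which share their libraries with the serum responses above. In normal growth 0 of 9 tested members were called, against 0.0462% of all tested genes (0.0385% higher, 0.00769% lower). Libraries did not overlap for 3 of the 9 tested members, 1 higher and 2 lower, against 48.7% of all tested genes (14.4% higher, 34.3% lower). AREG had the smallest p of the members, with 5.76 and 5.42 FPKM in G13R cells, against 9.20 and 10.7 FPKM in GFP cells. Its log2 fold change was -0.73 ± 0.15, with an unadjusted p = 5.26e-04 and a limma adjusted p = 0.105, and it was not called under any of the 16 alternatives (adjusted p from 0.0534 to 0.589). AREG was the 1 member with an unadjusted p under 0.05, against 15.1% of all tested genes. The 8 others had log2 fold changes between -0.18 and 0.28. ERRFI1 averaged 34.2 ± 0.584 FPKM in G13R and 33.1 ± 2.5 FPKM in GFP cells, and its difference had a 95% interval from -0.16 to 0.25.

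After serum 0 of 9 tested members were called again, against 0.823% of all tested genes (0.331% higher, 0.492% lower). Libraries of the 2 kinds of cell did not overlap for 7 of the 9 tested members, 4 higher and 3 lower in G13R cells. Over all tested genes 51.9% did not overlap (22.6% higher, 29.4% lower). An unadjusted p under 0.05 was reached by 4 members, EGFR and HBEGF in the higher direction and ERBB2 and ERBB3 in the lower, against 20.8% of all tested genes. EGFR averaged 8.40 ± 0.166 FPKM in G13R and 5.19 ± 1.57 FPKM in GFP cells, a log2 fold change of 0.62 ± 0.18 (limma adjusted p = 0.106). HBEGF averaged 17.5 ± 0.486 FPKM in G13R and 12.3 ± 0.422 FPKM in GFP cells, a log2 fold change of 0.48 ± 0.12 (adjusted p = 0.0713). ERBB2 averaged 10.2 ± 1.9 FPKM in G13R and 14.6 ± 0.0127 FPKM in GFP cells (-0.49 ± 0.16, adjusted p = 0.135), and ERBB3 0.891 ± 0.202 FPKM in G13R and 2.15 ± 0.404 FPKM in GFP cells (-0.73 ± 0.29, adjusted p = 0.186). Without GFP serum replicate 1, EGFR and HBEGF passed (0.89, adjusted p = 0.0109, and 0.51, adjusted p = 0.0375), when 1620 genes were called in place of 107. Without GFP serum replicate 2, EGFR was at 0.36.

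**Figure D3:**
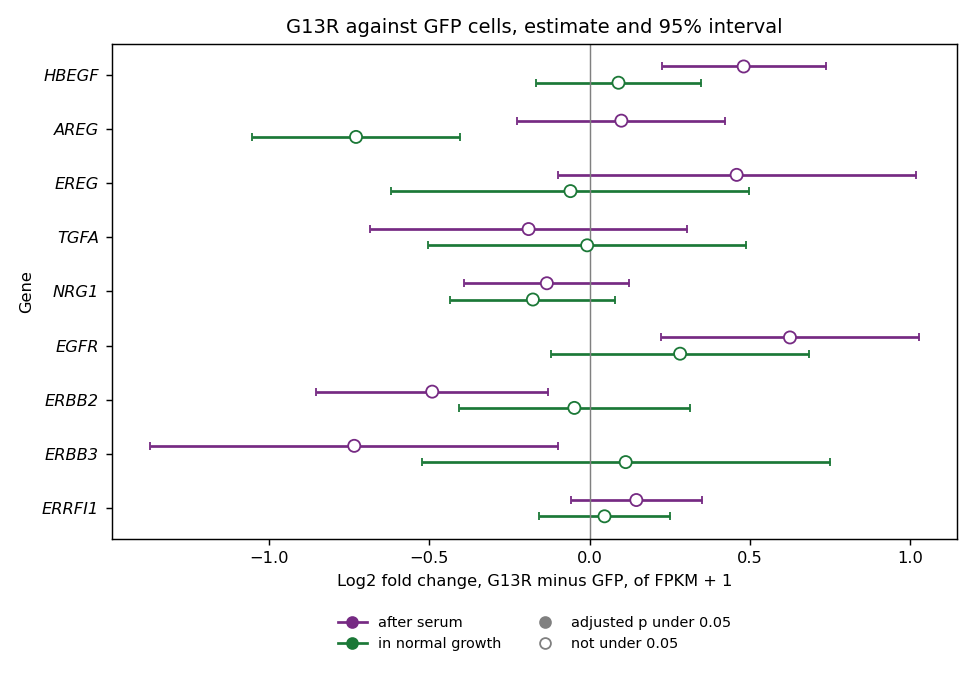
Log2 fold change of FPKM + 1 of G13R against GFP cells (horizontal axis) after serum and in normal growth for the 9 tested members, with 95% intervals from limma. No dot is filled, because no member had an adjusted p under 0.05; AREG in normal growth is at -0.73 and EGFR after serum at 0.62.

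Added over genes, the makeup of the family differed by condition, given here as a description with no test. The 6 ligands summed to 46.2 and 47.5 FPKM in G13R serum libraries, against 52.2 and 48.7 FPKM in G13R normal libraries. They summed to 41.4 and 42.1 FPKM in GFP serum libraries, against 56.8 and 54.7 FPKM in GFP normal libraries. The sum of the 3 receptors ran the other way, at 20.5 and 18.4 FPKM in G13R serum, against 16.7 and 15.2 FPKM in G13R normal libraries. It was 22.8 and 21.1 FPKM in GFP serum, against 13.1 and 15.6 FPKM in GFP normal libraries. The single receptors did not all follow their sum. ERBB2 was higher after serum without overlap in both kinds of cell. EGFR was lower without overlap in both, though not called, and ERBB3 overlapped in G13R cells.
AREG made up 23.1 and 26.9% of the ligand sum in G13R serum libraries, against 11.03 and 11.1% in G13R normal libraries. Its share was 26.3 and 25.7% in GFP serum, against 16.2 and 19.5% in GFP normal libraries. In GFP cells the serum libraries had the smaller ligand sums, and their AREG levels were also slightly higher, without overlap. These levels were 10.9 and 10.8 FPKM, against 9.20 and 10.7 FPKM for the GFP normal libraries. The limma estimate for AREG there, 0.12 ± 0.15 on the log2 scale (95% interval -0.21 to 0.44), fell short of a call. How far the sum and the AREG level each entered the share was not tested. HBEGF was the largest ligand share in 6 of the 8 libraries, at 35.3 to 44.4%, and NRG1 was the largest in both GFP serum libraries, at 31.8 and 29.8%. The ratio of ERBB2 to EGFR was 1.39 and 1.04 in G13R serum, against 0.768 and 0.676 in G13R normal libraries. It was 2.31 and 3.57 in GFP serum, against 0.892 and 0.977 in GFP normal libraries. By these values EGFR was the more abundant receptor transcript in all 4 normal growth libraries and ERBB2 in all 4 serum libraries. The ratio lay close to 1 in GFP normal replicate 2 (0.977) and G13R serum replicate 2 (1.04), where the order is uncertain.

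**Figure D4:**
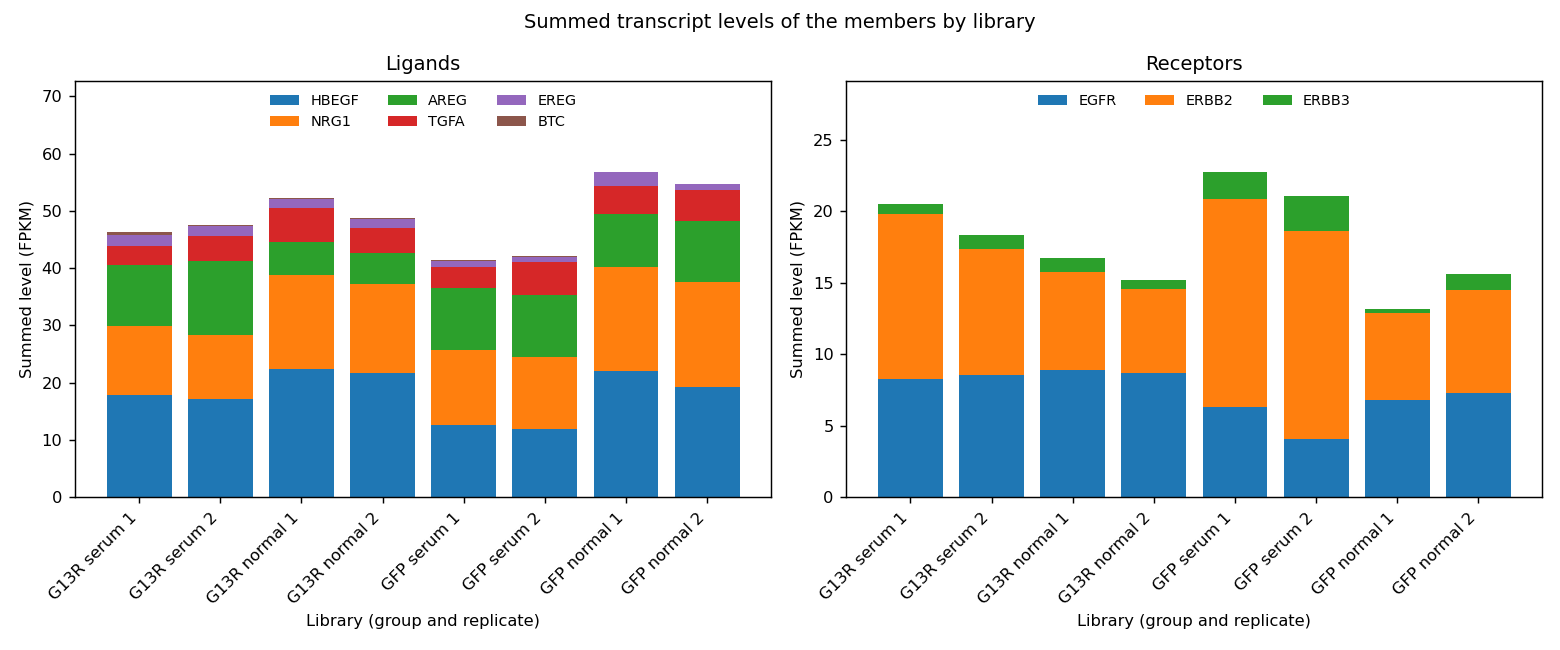
Summed level in FPKM (vertical axis from 0) of the 6 ligand genes and the 3 receptor genes in each library (horizontal axis), with a colour for each gene. The ligand sum is lowest in the GFP serum libraries, at 41.4 and 42.1 FPKM, where the receptor sum is highest, at 22.8 and 21.1 FPKM.

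The other genes of the pathway were taken from 4 lists, whose counts stand beside the 12.9% of all tested genes called after serum in G13R cells and 30.7% in GFP cells, and whose medians stand beside 0.04 and 0.01 for all tested genes. Of the other EGF family genes, 3 of 6 were tested and 0 were called after serum in either kind of cell. EGF (0.897 to 2.71 FPKM), NRG3 (1.43 to 3.10 FPKM) and NRG4 (1.29 to 3.10 FPKM) passed the filter, and the receptor gene ERBB4 stayed at or under 0.187 FPKM. Of 8 tested genes for ligand processing, 2 rose and 2 fell in G13R cells (median 0.02) and 1 rose and 2 fell in GFP cells (median 0.02). ADAM12, a protease able to release HB-EGF, had 5.45 and 4.97 FPKM in G13R serum, against 11.4 and 10.1 FPKM in G13R normal libraries, and 3.65 and 3.85 FPKM in GFP serum, against 14.5 and 10.4 FPKM in GFP normal libraries. It fell in both, by log2 fold changes of -0.92 ± 0.17 (limma adjusted p = 0.00884) and -1.49 ± 0.17 (adjusted p = 3.33e-04). FURIN, a convertase that removes the prodomain of ADAM proteases, fell by 0.31 in G13R cells and by 0.42 in GFP cells. RHBDF2, an inactive rhomboid protein that escorts ADAM17, rose by 0.46 in G13R cells and 0.33 in GFP cells, and its relative RHBDF1 rose by 0.68 in G13R cells.

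Of 14 genes of receptor turnover and restraint, 1 rose and 0 fell in G13R cells (median 0.11), and 1 rose and 1 fell in GFP cells (median 0.03). LRIG1, a membrane protein that lowers ERBB receptor levels, was called in G13R cells (0.62 ± 0.17, limma adjusted p = 0.0424), with 11.6 and 8.66 FPKM after serum, against 5.68 and 6.71 FPKM in normal growth. CBLB, a ubiquitin ligase of active receptors, rose in GFP cells (0.89 ± 0.23, adjusted p = 0.0156), and HGS, an endosomal sorting protein, fell there (-0.55 ± 0.10, adjusted p = 0.00302). Of 27 adaptor and effector genes, 1 rose and 0 fell in G13R cells (median 0.03), and 2 rose and 4 fell in GFP cells (median -0.01). Both counts were shares below those of all tested genes. MAPK3, which encodes ERK1, rose in both (0.58 ± 0.14, adjusted p = 0.0278 in G13R and 0.68 ± 0.14, adjusted p = 0.00615 in GFP cells). In GFP cells the RAS exchange factor gene SOS2 rose (0.74 ± 0.17) and the MEK1 gene MAP2K1 fell (-0.75 ± 0.12). In the comparisons of G13R with GFP cells, 0 pathway genes were called in normal growth and 0 after serum. Over all tested genes the shares were 0.0462% and 0.823%, so these counts do not set the pathway genes apart.

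**Figure D5:**
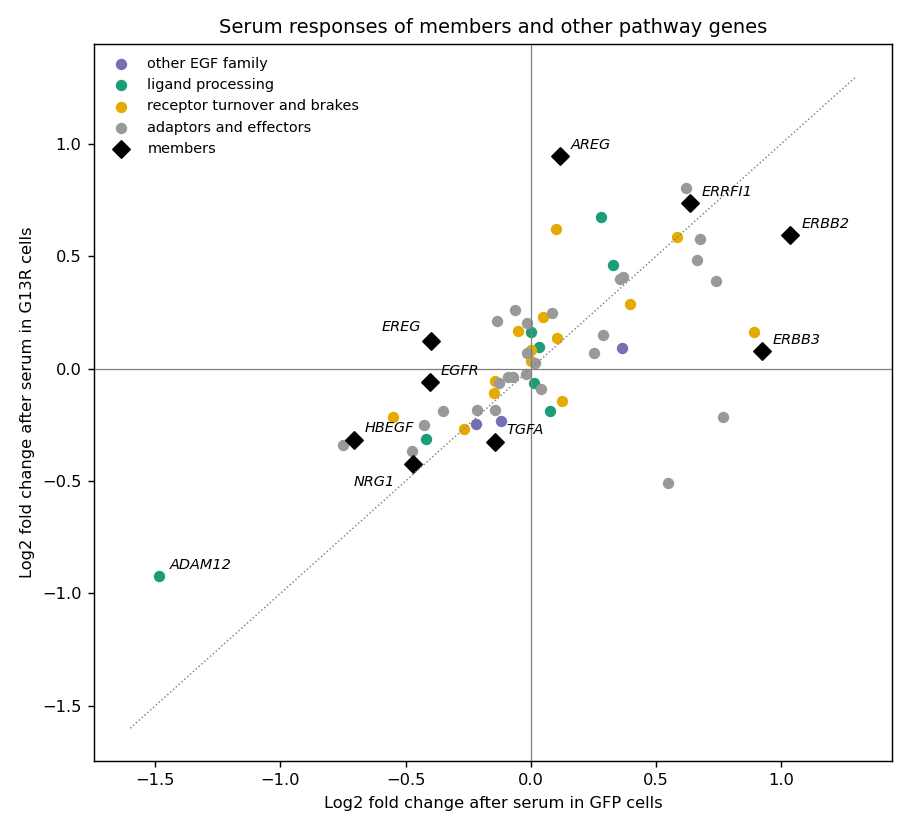
Log2 fold change after serum in GFP cells (horizontal axis) and in G13R cells (vertical axis) for the 9 tested members (diamonds) and the other tested pathway genes (dots, coloured by list); the dotted line marks equal values. AREG lies above the line, at 0.94 in G13R and 0.12 in GFP cells, a difference that was not called (limma adjusted p = 0.266). ADAM12 is the lowest on both axes.

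For each tested member, the genes with the most similar profile were found among 11257 genes with a mean of at least 2 FPKM, by Pearson correlation of log2(FPKM + 1) over the 8 libraries. The libraries form 4 groups, so for members with close replicates these values mostly describe group means. Others also follow single libraries, such as EREG (2.38 and 1.07 FPKM in GFP normal) and TGFA (3.63 and 5.77 FPKM in GFP serum). Each value was picked as among the highest of 11257 over only 8 libraries. How high unrelated genes would reach was not tested. ERRFI1 was closest to EMP1 (r = 0.991), SOX9 (0.991) and SVIL (0.990). HBEGF was closest to BCL2A1 (0.991), SH3BP5L (0.988) and SLC35F2 (0.981), and NRG1 to LRP5L, PSMG1 and BRAP (0.993, 0.993 and 0.990). ERBB2 was closest to GPR161 (0.997), LIMS2 (0.983) and ACVR2B (0.982). AREG was closest to ACY1 (0.984), PNKD (0.972) and SRD5A1 (0.966), and EREG to GAS5 (0.941), TCEA1 (0.934) and IL1R1 (0.910). EGFR was closest to SH2B3 (0.986), APCDD1L-AS1 (0.986) and CAMKK1 (0.978), ERBB3 to TEAD3 (0.981), NPEPPS (0.967) and DERA (0.957), and TGFA to DNAJC1 (0.949), UBE2E2 (0.918) and ELP4 (0.905).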

How the data were processed

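Levels are FPKM values in 1 table that the authors deposited, with a column for each of the 8 libraries. TopHat2 2.0.13, Cufflinks 2.2.1 and the builds hg19 and BDGP5 are named, per the submitters' processing notes. The sources used here do not give the gene annotation. Columns were matched to libraries by name, C being read as normal growth. FPKM keeps no read counts: among genes under 0.25 FPKM, at most 10.6% of values lay at the commonest ratio to G13R normal replicate 1, so depth is unknown and no count model or counting interval was used. Starts were raised by 1, since 77.4% of 159 olfactory receptor genes spanning under 1000 bases had an end minus start divisible by 3.

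The fit used limma 3.58.1 (R 4.3.3) on log2(FPKM + 1), with an intensity trend, 1 mean per group, all 8 libraries and 4 residual degrees of freedom. A gene was tested if 2 or more libraries reached 1 FPKM, and adjusted p-values are Benjamini-Hochberg over 12996 genes. There were 5 contrasts. The procedure was tested on simulated data. Members and lists were chosen with earlier results of these data known. Named genes were the 10 members, up to 3 called genes with the largest changes per pathway list and contrast, and the 3 genes most similar to each member. Alternatives changed the pseudocount (0.1), the filter (none, or 5 FPKM), the scaling (median-ratio or quantile), the libraries fitted (the compared ones alone, or without each library in turn) and the model (no intensity trend, or the replicate number as a block). The labels give no batch. RefSeq windows were matched for 8 of the 10 members.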

Additional observations from a re-analysis of the deposited data

How the results depend on the processing

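Of 45 results of single members, 9 were called, none of these changed direction under the alternatives run, and 5 stayed called in every alternative: AREG and ERRFI1 in G13R cells and HBEGF, ERBB2 and ERRFI1 in GFP cells. Leaving out each library in turn gave 2 to 4 called members after serum in G13R cells, 3 to 6 in GFP cells, and 0 to 2 for G13R against GFP after serum, with 0 in normal growth and 0 for the difference of responses. A library left alone in its group was assumed to vary like those of the other groups.

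Direction changed in 13 results, all of them not called. Quantile normalization gave -0.0207 for EREG and -0.0792 for ERBB3 after serum in G13R cells, 0.0320 for TGFA in the normal growth comparison, and -0.0097 for NRG1 in the difference of responses. Median-ratio scaling gave 0.0472 for TGFA and 0.0089 for ERBB2 in normal growth. Leaving out libraries gave ranges of -0.10 to 0.25 (ERBB3 after serum in G13R cells), -0.42 to 0.13 (TGFA after serum in GFP cells), -0.0208 to 0.22 (AREG) and -0.46 to 0.0831 (TGFA) in G13R against GFP cells after serum. In normal growth the ranges were -0.15 to 0.0544 (ERBB2), -0.27 to 0.50 (ERBB3), -0.41 to 0.29 (EREG), -0.0283 to 0.12 (ERRFI1), -0.00021 to 0.18 (HBEGF) and -0.18 to 0.16 (TGFA). For the difference of responses they were -0.00057 to 0.0878 (NRG1) and -0.46 to 0.0907 (TGFA). The cause was not tested.

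Libraries with the same replicate number deviated together only weakly (r from 0.0169 to 0.121 over genes), so the number was not taken as a pairing. With it as a replicate block, 4 members were called after serum in G13R cells, 5 in GFP cells, and 0 in each other contrast, while genes called between G13R and GFP cells numbered 83 with the block and 6 without it in normal growth, and 403 and 107 after serum.

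Over all genes, the 1675 calls after serum in G13R cells were 932 without a filter, 1071 without the trend and 413 to 655 without any one G13R library; the 3985 in GFP cells were 2155 to 2527 without GFP normal replicate 1 or 2 or GFP serum replicate 2. The 107 calls between G13R and GFP cells after serum were 4 without a filter, 263 with the filter at 5 FPKM, 180 after quantile normalization, 6 from the compared libraries alone, 6 without the trend, and 5 to 1620 without 1 library. The 6 in normal growth were 14 at 5 FPKM, 12 after quantile normalization, 49 from the compared libraries alone, and 98 and 109 without GFP serum replicate 1 and 2. Depth is unknown, so values near 1 FPKM (EREG, ERBB3) and below (BTC) carry an error that cannot be given beyond 2 libraries.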
